A study of Mus musculus with 3 samples.

Results

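Of 50869 GATA4 peaks called in the stomach mucosa of adult mice, 4286 (8.43%, 95% interval 8.19 to 8.67) were centred in exon 2 or a later exon of a protein-coding transcript. They were chosen by the deposited HOMER annotation alone, as peaks whose class is an exon with a number of at least 2; no measured height or fold entered the choice. Together they made up 66.4% of the 6455 peaks placed in exons, covered 1344 kb and lay in 3017 host genes, the genes whose exons hold the peak centre. HOMER kept untranslated regions as classes of their own, and all 4286 peaks rested on transcripts with a curated mRNA record. For 7 of them no host gene name was found.

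All mice were labelled G4fb/fb R26 Bira/Bira: both copies of Gata4 encode a Flag and biotin acceptor tag, and the BirA ligase gene that adds the biotin was present too, in the input as in the pull-downs. Chromatin from stomach mucosa of adults of 10 to 12 months gave 2 libraries of GATA4 pulled down on streptavidin beads and 1 input library. The pull-downs carry different codes, FB77 and FB76, and the input shares FB77; the labels do not say whether these were separate animals, and a control with the ligase but no tagged GATA4 was not analysed here. The authors pooled both pull-downs, 38770530 tags after filtering, and called peaks against 23023152 input tags. No peak therefore has a value per replicate, and no test between samples could be made: every comparison below describes this single list. Intervals are exact Clopper-Pearson intervals for shares and exact Poisson intervals for tag numbers, at the 95% level, and cover counting error only. The mucosa was not sorted, and since peaks measure binding rather than expression the tissue label was not checked against marker transcripts.

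GATA4 is a zinc finger transcription factor that recognises the letters GATA in DNA. In the gut it is known for its role in the columnar epithelium of the stomach and proximal small intestine, and elsewhere for heart development. Regulatory elements are best known from promoters, introns and the sequence between genes, but some lie inside coding exons, where the same bases also spell the protein. In a compact gene an exon 2 can also lie so close to the transcription start site (TSS) that a promoter peak spills into it or is centred on it.

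The overlap between later exons and promoters is shown first by sequence. Only 42 of the 4286 peaks extended far enough to cover a TSS, 37 of them at the start of their own host gene, and 25 of these had a single start in the RefSeq promoter table of build GRCm38.p6. The bases upstream of the start that fell inside the peak are given for 4 of them, 5′ to 3′ on the gene's strand, with each GATA core, on either strand, in capitals. Ddx41 (chr13:55536659-55536867, minus strand) and Mcl1 (chr3:95658471-95658720, plus strand) had the strongest such peaks, Fam98c (chr7:29156211-29156340, minus strand) held a core, and H2-Q10 (chr17:35469854-35470088, plus strand) held the only longer motif of the 25. The start in the table may differ from the mm9 start that HOMER used.
Ddx41: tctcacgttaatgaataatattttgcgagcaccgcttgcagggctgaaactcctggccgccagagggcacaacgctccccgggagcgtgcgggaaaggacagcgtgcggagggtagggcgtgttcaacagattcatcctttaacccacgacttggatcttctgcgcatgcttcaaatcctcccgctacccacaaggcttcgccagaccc
Mcl1: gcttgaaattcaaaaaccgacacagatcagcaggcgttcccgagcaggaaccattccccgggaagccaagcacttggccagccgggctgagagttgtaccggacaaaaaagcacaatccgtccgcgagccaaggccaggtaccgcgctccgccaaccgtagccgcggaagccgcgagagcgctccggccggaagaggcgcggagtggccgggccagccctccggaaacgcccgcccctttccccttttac
Fam98c: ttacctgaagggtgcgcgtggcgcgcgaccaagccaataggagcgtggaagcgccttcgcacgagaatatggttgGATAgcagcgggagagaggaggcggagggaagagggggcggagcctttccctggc
H2-Q10: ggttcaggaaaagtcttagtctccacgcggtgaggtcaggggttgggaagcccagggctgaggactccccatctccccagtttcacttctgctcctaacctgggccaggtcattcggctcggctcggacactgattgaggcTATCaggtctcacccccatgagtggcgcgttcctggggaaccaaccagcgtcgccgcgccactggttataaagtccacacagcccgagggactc
Neither Ddx41 nor Mcl1 held a core in the stretch covered by its peak. The longer motifs searched, on both strands, were AGATAA or its variant AGATAG, as well as TGATAA or its variant TGATAG. One of them was found inside the peak in 1 of the 25, and the core GATA, which each longer motif contains, in 6. Over the full 250 bases upstream, 24% of the 25 held a longer motif and 48% a core, beside 26.5% and 53.6% of the 32851 promoters searched. A match describes letters and does not show a bound site, and its absence here says nothing of the exon itself, whose mm9 sequence was not used.

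Peaks in later exons were mostly weak. Their median fold enrichment over input was 4.12 (quartiles 3.72 and 4.72). Fold is the authors' ratio of scaled pull-down height to the input level of the call, each with 1 added. The median height of later-exon peaks was 20 tags, beside 22 tags over all peaks. For any 1 peak with 20 tags the Poisson interval is 12.2 to 30.9, which is not an interval of the median. A fold of at least 5 was reached by 677 of the 4286, or 15.8% (14.7 to 16.9), against 30.3% of all peaks. At least 10-fold was reached by 6, or 0.140% (0.0514 to 0.304), against 1.04% of all peaks. Among the top 10.0% of all peaks by −log10 q-value stood 90 of them, or 2.1% (1.69 to 2.57). The median length was 242 bp, and the median distance from the nearest TSS was 7.09 kb.

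The exon number marks a step in strength. Exon 1 peaks, which lie just outside the rule, numbered 2169 and had a median fold of 5.28; 55.6% of them reached 5-fold, and 91.3% were centred within 1 kb of a TSS, against 6.42% of the later-exon peaks. The 6507 peaks of later introns outside repeats had the same median fold as later exons, 4.12, and a similar share at 5-fold, 14.8%, with an interval of 14.0 to 15.7 that overlaps the one for exons. Fold moved in steps of 1 tag: over an input level plus 1 of 2.98, counts of 18, 19 and 20 tags gave 3.92, 4.12 and 4.32. Equal medians therefore show only that classes fall in the same step. The strongest peaks were scarcer in exons than in those introns: 0.676% (0.492 to 0.907) of the intron peaks reached 10-fold, an interval that does not overlap that of the exons, although no test of the difference was run. Peaks in 3′ untranslated regions also had a median of 4.12, and 11.4% (9.27 to 13.8) of 809 reached 5-fold.

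**Figure D1:**
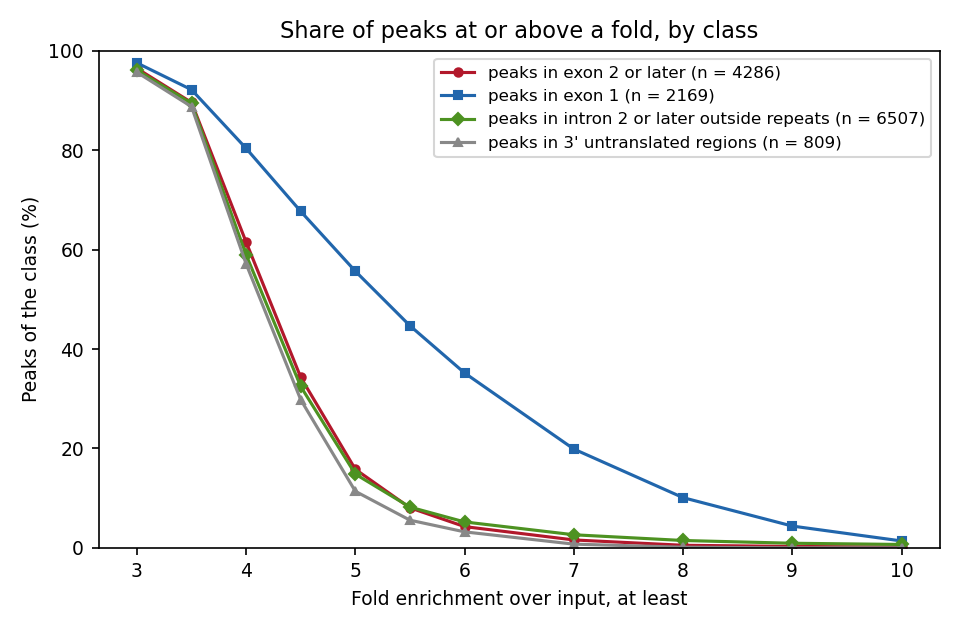
Share of peaks (y axis, %) whose fold enrichment over input is at least the value on the x axis, for peaks in exon 2 or later, exon 1, later introns outside repeats and 3′ untranslated regions. The later-exon curve runs beside those of later introns and 3′ untranslated regions, with 15.8% of peaks at 5-fold, while exon 1 peaks have 55.6% there.

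Among later exons, exon 2 held the strongest group. Its 958 peaks had a median fold of 4.32, and 24.8% (22.1 to 27.7) of them reached 5-fold. In exon 3 that share was 16.8% (13.6 to 20.3), and in exon 10 or later, with 1311 peaks, it was 11.1% (9.41 to 12.9). Nearness to a start moved with the exon number: 23.7% of exon 2 peaks lay within 1 kb of a TSS, 5.65% of exon 3 peaks and 0.305% of those in exon 10 or later. Within 1 kb, 37.4% of exon 2 peaks reached 5-fold. Beyond 1 kb the share was 20.9% of 731 peaks in exon 2 and 13.1% of 3280 in exon 3 or later, with intervals that do not overlap. The former still lay nearer to a TSS, at a median of 3401 bp against 9013 bp, and the part of distance in this difference was not tested.

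**Figure D2:**
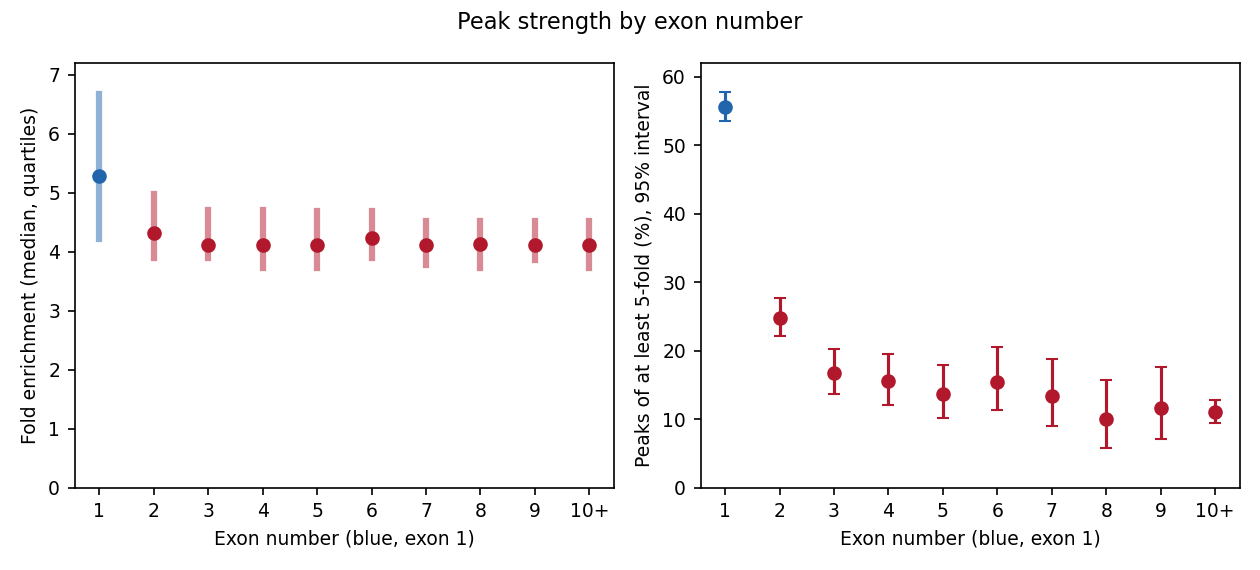
Left, median fold enrichment with quartiles for peaks by the number of the exon that holds them; right, the share of at least 5-fold (%) with its 95% interval, exon 1 in blue for comparison. The share falls from 55.6% in exon 1 to 24.8% in exon 2 and 16.8% in exon 3, and is 11.1% in exon 10 or later.

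The last exon, which usually carries the end of the coding sequence and can hold most of it in genes with few exons, contained 1198 of the peaks (28.0%, 26.6 to 29.3). Of these, 19.6% (17.4 to 22.0) reached 5-fold, against 14.3% (13.1 to 15.6) of the 3088 peaks in inner exons. Both shares were lower over 3 kb from a TSS, where they were 16.6% (14.3 to 19.3) and 11.2% (9.94 to 12.5). The share was 26.2% for the 305 peaks in exon 2 of 2, 20.7% for the 169 in exon 3 of 3 and 14.1% for the 262 in the last of over 10 exons. Length went with strength as well: the 81 peaks of at least 1000 bp had a median fold of 5.91 and 70.4% of them reached 5-fold, against 6.86% of the 2830 peaks under 300 bp. Length and height both come from the same tags, so these are not separate measures.

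In each range of distance from a TSS examined, the share of strong peaks was lower in later exons than among other peaks, though not always beyond counting error. Within 300 bp, 51.1% (36.1 to 65.9) of 47 later-exon peaks reached 5-fold, beside 62.1% of other peaks (61.2 to 63.0). Between 300 and 1000 bp the shares were 30.7% (24.8 to 37.1) and 40.6% (39.2 to 42.1), with intervals that do not overlap, and between 1 and 3 kb they were 22.1% (19.2 to 25.1) and 24.1%. Distance was not equal inside these ranges. Up to 3 kb the later-exon peaks lay farther out, and beyond 3 kb they lay nearer than other peaks. Their medians were 230 against 118 bp within 300 bp, and 706.5 against 508 bp between 300 and 1000 bp. The part of distance inside a range was not tested. From 3 to 100 kb the shares were 13.4% against 19.6% at 3 to 10 kb, 12.5% against 19.1% at 10 to 30 kb, and 10.6% against 19.4% at 30 to 100 kb, each with intervals that do not overlap. Over 100 kb away the 66 later-exon peaks gave 15.2% (7.51 to 26.1), beside 16.0%.

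**Figure D3:**
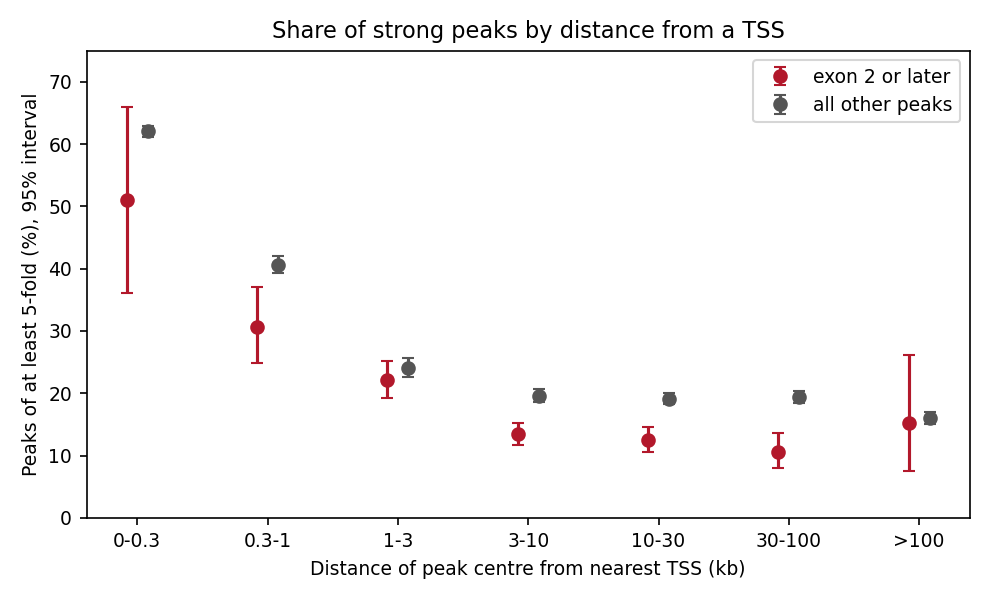
Share of peaks of at least 5-fold (y axis, %, with 95% intervals) by distance of the peak centre from the nearest TSS (x axis, kb), for peaks in exon 2 or later and all other peaks. From 3 to 100 kb the later-exon shares lie between 10.6% and 13.4%, and those of other peaks between 19.1% and 19.6%.

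The strongest later-exon peak lay in exon 22 of 24 of Pdzd2, which encodes a protein with several PDZ domains, at mm9 chr15:12297368-12297844. It had 105 tags (85.9 to 127) and a fold of 21.1, and ranked 8 in fold among all 50869 peaks. The next in order, in exon 2 of 17 of the RNA helicase gene Ddx41 at chr13:55637224-55638228, had a fold of 12.3 from 60 tags (45.8 to 77.2); its centre lay 293 bp from the start. Exon 3 of 9 of Kcnn4, which encodes a calcium-activated potassium channel, followed at 11.5-fold and 76 tags (59.9 to 95.1), 7.12 kb from the start. In tags, the interval of Kcnn4 overlaps those of both Ddx41 and Pdzd2, and the interval of Pdzd2 lies above that of Ddx41. The 3 others above 10-fold lay in exon 6 of Prdm2, a histone methyltransferase gene, at 10.9-fold, exon 2 of the calpain gene Capn10 at 10.03-fold, and exon 6 of Flg2, a filaggrin family gene of cornified epithelium, at 10.03-fold.

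Gata4 itself was among the 25 strongest. A peak in exon 2 of its 7 exons, at mm9 chr14:63859310-63859972, had 45 tags (32.8 to 60.2) and a fold of 9.30, with its centre 4.47 kb from the nearest start of the gene. Hif3a, a hypoxia-inducible factor gene, and Cacna1a, a calcium channel gene, had peaks of the same 9.30-fold, in exon 2 of 15 and exon 46 of 46. Other genes of transcription factors in the group were Sox9 at 8.70-fold in exon 3 of 3, Maz at 8.50-fold in exon 2 of 5, the Notch target Hes1 at 8.25-fold in exon 4 of 4 and the homeobox gene Pitx1 at 7.90-fold in exon 3 of 3. Sox9 and Pitx1 peaks were centred 2.60 and 5.29 kb from the start.

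The rest of the 25 ran from 9.69-fold down to 7.90-fold. The survival factor gene Mcl1 stood at 9.69-fold, the class I histocompatibility gene H2-K1 at 9.61, the mitochondrial phosphatase gene Ptpmt1 at 9.04, the chloride channel gene Ano1 at 8.90, Mpnd at 8.77, Tekt5 at 8.70, Mtss1 and C2cd4a at 8.50, the kinase gene Dapk3 at 8.10, Fam98c at 8.05, and Bahcc1 and the neuregulin gene Nrg2 at 7.90. With 38 to 51 tags each, these 12 have intervals that overlap, so their order is not settled by the tags. H2-K1, like H2-Q10, belongs to a family of near-identical genes, among which short tags can be misplaced. Of all 25 peaks, 13 were in exon 2, 8 in a last exon and 8 within 1 kb of a TSS, and 1, in Kcnn4, lay over an input level above 2.5.

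HOMER credits a peak to the gene with the nearest TSS, which for later exons was often another gene. It named the host gene for 63.5% (62.1 to 65.0) and a different gene for 1556 of the 4286 peaks, or 36.3% (34.9 to 37.8). Of those 1556, 1150 were credited to another protein-coding gene and 375 to a noncoding RNA gene, 223 of them microRNA genes. The Pdzd2 peak was credited to Golph3, whose start is 46.4 kb away, and the Cacna1a peak to Ier2, 23.3 kb away. Similarly the Shh exon 3 peak went to 9530036O11Rik and the Gata6 exon 2 peak to Gata6os. Peaks credited to another gene were 10.4 kb from that start in the median and 13.9% of them (12.3 to 15.8) reached 5-fold, against 5.72 kb and 16.9% (15.5 to 18.3) for those credited to the host.

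Most hosts had a promoter peak too. Of the 3017 host genes, 2290 (75.9%, 74.3 to 77.4) had another peak within 1 kb of a TSS credited to them, beside 56.9% of all 21031 protein-coding genes. In 112 others the later-exon peak itself was the one within 1 kb, and 615 had neither. Where both were present, the promoter peak was usually the stronger: the medians were 5.68-fold for the strongest promoter peak and 4.32-fold for the strongest later-exon peak, and the exon peak was the weaker in 1727 genes, equal in 34 and the stronger in 529 (23.1%, 21.4 to 24.9). Taken gene by gene, the promoter peak had a median of 1.30 times the exon peak's fold (quartiles 1.01 and 1.65).

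Some genes went the other way. In Evx1, a homeobox gene, the exon 3 peak stood at 7.70-fold and the promoter peak at 3.07. In Fermt1, which encodes kindlin-1 of integrin adhesions, the values were 7.90 and 3.17, and in Dbp, a clock-controlled transcription factor gene, 7.62 and 3.07. Kcnn4 gave 11.5 against 4.89. These 4 were picked for the size of that difference, so they illustrate it and do not support it. Genes with neither kind of promoter peak included Pdzd2, Flg2 and Ano1, and after them Angptl6 at 7.81-fold, Sytl3 at 7.66, and Shh and the stress cytokine gene Gdf15 at 7.30. Over all 615 such genes the strongest later-exon peak had a median of 4.32-fold, the same as in hosts with a promoter peak. It reached 5-fold in 105 of the 615, beside 476 of the 2290 hosts with a promoter peak. A promoter peak credited to a neighbouring transcript would be missed by this count.

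**Figure D4:**
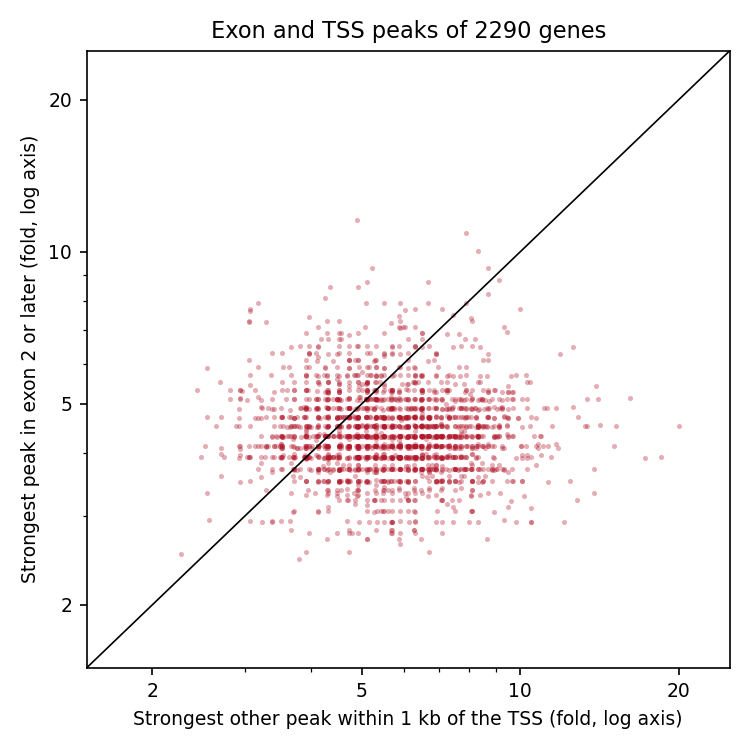
Strongest peak in exon 2 or later (y axis, fold over input, log axis) against the strongest other peak within 1 kb of the TSS (x axis, fold, log axis) for 2290 genes; the line marks equal folds. 1727 genes lie below the line and 529 above it.

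Later-exon peaks also lay closer to another peak than the rest of the list did. The nearest other peak lay at a median gap of 1.72 kb, against 3.86 kb for all other peaks. It lay within 5 kb for 71.7% (70.4 to 73.1) against 53.6%, and within 1 kb for 39.1% (37.6 to 40.6) against 33.7%. That neighbour was an intron peak for 1500, another later-exon peak for 1363, in 1271 cases of the same host, and a promoter peak for 603. Neighbour classes were not counted for other peaks. The other peaks include intergenic ones, and gaps were not computed for later introns or exon 1 alone. Among host genes 2177 had 1 such peak, 587 had 2 and 253 had 3 or more. Genes with more exon sequence offer more room for a peak, and exon lengths were not used here.

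The genes with the most later-exon peaks were Plec, Bsn, Evpl, Sptbn4, Kmt2d and Fasn. Plec, for the cytoskeletal linker plectin, had 14 peaks in exons 14 to 32, between 3.29- and 5.28-fold, 7 of them in its last exon. Evpl, for envoplakin of the cornified envelope, had 10 peaks between 3.37- and 4.89-fold, and Bsn, for the presynaptic scaffold bassoon, had 10 between 3.32- and 6.27-fold. Sptbn4, a spectrin gene, had 9 with a median of 5.08-fold, of which 5 reached 5-fold. Kmt2d, for a histone H3 lysine 4 methyltransferase, and Fasn, for fatty acid synthase, had 8 each, at medians of 3.94 and 4.01. Each of these genes had at least 1 stronger promoter peak, at 9.50-fold for Plec and 8.10-fold for Evpl, with the lowest, 5.19-fold, for Fasn.

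Plakin genes, which encode a family of cytoskeletal linkers and were grouped after their values had been seen, differed widely. Besides Plec and Evpl, Eppk1 had 5 peaks, Ppl 2, Dst 2 and Dsp 1, and Macf1 had 0. The longest of all later-exon peaks, 3483 bp in exon 2 of 2 of Eppk1, stood at 3.23-fold over an input level that, with 1 added, came to 13.0, where the median of all later-exon peaks was 2.98. Sfi1, a centrosome gene, had 7 peaks with folds of only 1.82 to 2.52, the lowest of all later-exon peaks among them, although their pileups included the highest of all, 155.58 scaled tags; there the input level plus 1 was 57.0 to 80.0. The part that raised input plays in these peaks was not tested. Over the whole set, 15.3% of later-exon peaks and 21.7% of other peaks lay over an input level above 2.5, and the 654 later-exon peaks that did so had a median fold of 3.37.

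**Figure D5:**
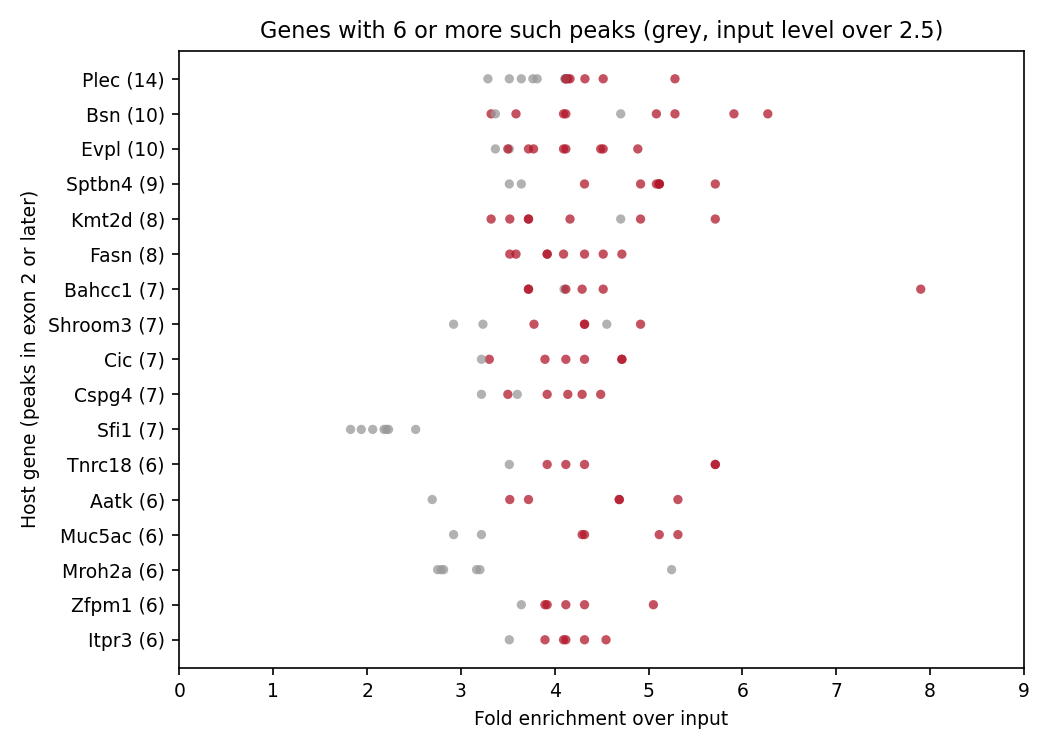
Fold enrichment over input (x axis) of every peak in exon 2 or later of the genes with 6 or more such peaks (y axis, number of peaks in brackets); grey points have an input level above 2.5. Sfi1 peaks lie between 1.82- and 2.52-fold, all grey, and the Bahcc1 exon 2 peak at 7.90-fold is the highest shown.

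Genes of the factors that work with GATA4 carried later-exon peaks in 8 of 19 cases (42.1%, 20.3 to 66.5), beside 14.3% of protein-coding genes. After Gata4, the strongest were in exon 2 of 7 of its relative Gata6, at 6.71-fold, and exon 2 of 2 of Nkx2-5, a cardiac homeobox partner, at 6.47-fold. The corepressor gene Zfpm1, which encodes FOG1, had 6 peaks from exon 3 to exon 10, between 3.64- and 5.05-fold. Casz1 had 4, Gata3 had 2, and Gata2 and Ep300 had 1 each. The lists were chosen with earlier results of these data known, and their genes differ in exon number and length from the average gene, so the shares describe the lists only.

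Foregut transcription factor genes had the highest median fold of the 8 lists. Of 34, 14 (41.2%, 24.6 to 59.3) had a later-exon peak. Of their 22 peaks 11 reached 5-fold, beside 15.8% of all later-exon peaks, and the median was 4.92 beside 4.12. Over all later-exon peaks, 26.2% of those in exon 2 of 2 and 20.7% in exon 3 of 3 reached 5-fold. The part of exon place in the folds of this list was not tested. Sox9, a progenitor factor, led with 8.70-fold, followed by Pitx1 with 7.90 and Klf4, a factor of epithelial differentiation, with 7.11 in exon 3 of 5. Foxa1, Pdx1 and Foxa2, which act in endoderm and in the pancreas and antrum, followed at 6.28, 5.91 and 5.51, all in exon 2 of 2. Sox9 and Pitx1 each had 3 peaks, with the lowest at 4.12 and 4.69.

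Of 37 stomach gland marker genes, 10 (27.0%, 13.8 to 44.1) had a later-exon peak, an interval that holds the 14.3% of all protein-coding genes. Pgc, for pepsinogen C of chief cells, had 3 in adjacent exons, at 4.72-fold in exon 3, 7.50 in exon 4 and 6.51 in exon 5. Ctse, for the aspartic protease cathepsin E of surface mucous cells, had 1 in exon 2 of 10 at 6.51-fold and 23.7 kb from the start. The pit cell mucin gene Muc5ac had 6, spread from exon 8 to exon 38 of 50, between 2.92- and 5.31-fold, and Muc1 had 2, at 5.11 and 5.08. Atp4a, for the catalytic subunit of the parietal cell proton pump, had peaks of 4.32- and 4.12-fold in exons 19 and 12.

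Epithelial structure genes had the largest share of any list, 16 of 28 (57.1%, 37.2 to 75.5). Their folds were near those of all later-exon peaks. The median was 4.26 beside 4.12, and 4 of 29 peaks reached 5-fold, beside 15.8% of all later-exon peaks. Epcam, an epithelial adhesion gene, led at 5.61-fold in exon 2 of 10 from 55 tags, over an input level plus 1 of 6.0, before the actin bundler gene Espn at 5.43 and the desmosomal plakophilin gene Pkp2 at 5.11. Jup, for plakoglobin, had 5 peaks between 3.72- and 4.92-fold. Cdh1, for E-cadherin, had 1 in exon 2 at 5.08-fold, 951 bp from the start.

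A list of signalling genes, from the Wnt, Notch, hedgehog and BMP pathways, SMAD proteins and the EGF receptor family, had peaks in 16 of 37 (43.2%, 27.1 to 60.5). Hes1 was strongest at 8.25-fold. The hedgehog ligand gene Shh had 7.30-fold in its exon 3 of 3, and the hedgehog receptor gene Ptch1 had 6.47-fold in exon 2 of 24, over a peak of 1144 bp. Among receptors of the Notch pathway, Notch1 had 5 peaks from 3.05- to 4.49-fold, Notch2 had 3 and Notch3 had 3, up to 5.31-fold in exon 24 of 33. The Notch ligand genes Dll1 and Jag1 had 1 each, at 5.28 and 4.29.

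Chromatin regulator genes had peaks in 12 of 24 (50%, 29.1 to 70.9), with 31 peaks at a median of 4.16. A Kmt2d peak in exon 40 of 55 stood at 5.71-fold, and another, in exon 35, at 4.92. In the lists meant for comparison, 5 of 20 housekeeping genes (25%, 8.66 to 49.1) and 4 of 20 muscle and stromal genes (20%, 5.73 to 43.7) had one. Both intervals hold the 14.3% of all protein-coding genes and overlap those of the other lists. Among the housekeeping genes, the tubulin gene Tubb5 had 4.32-fold in exon 4 of 4. Tubb3, a neuronal tubulin gene, had 6.27-fold in exon 4 of 4, Sox10, a glial factor gene, 4.92, and the collagen gene Col1a1 4.52.

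Gene families defined by symbol are set beside the 14.3% of all protein-coding genes that carried a later-exon peak. Zinc finger genes (Zfp, Zscan and Zkscan) had one in 73 of 422 (17.3%), and 66 of their 94 peaks (70.2%) lay in the last exon, which in these genes commonly encodes the whole finger array; over all later-exon peaks that share was 28.0%. Solute carriers had one in 68 of 375 (18.1%), with 22.4% of peaks in the last exon. Collagens (13 of 44), keratins (13 of 53), Hox genes (10 of 39), kinesins (10 of 38) and mucins (3 of 11) had shares between 24.5% and 29.5%, ATPases (16 of 85) 18.8%, and the Tbc1d and Rab genes (13 of 99) 13.1%. The intervals of the zinc finger, keratin, Hox, kinesin, mucin, ATPase, and Tbc1d and Rab families hold the 14.3%. Ribosomal protein genes were below it at 3 of 77 (3.90%, 0.811 to 11.0), as were protocadherins at 2 of 69 (2.90%, 0.353 to 10.1). Olfactory receptors had 0 of 1108, with an upper bound of 0.332%; most have their coding sequence in a single exon.

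Chromosomes also differed in the share of their peaks that lay in later exons. It was highest on chromosome 7, with 502 of 3896 peaks (12.9%, 11.8 to 14.0), and lowest on chromosome X, with 44 of 1723 (2.55%, 1.86 to 3.41). Chromosomes 15 and 11 followed chromosome 7 at 11.5% and 11.4%, and their intervals overlap its own. Gene density was not set against these shares. Farthest of all from a start was a peak in exon 12 of 15 of Kif26b, a kinesin gene, 389 kb from its TSS at 3.70-fold.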

How the data were processed

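Bowtie2, MACS2 and HOMER and the build mm9 are named in the submitters' processing notes; the headers give MACS2 version 2.1.0.20140616. They also record that the authors pooled the pull-downs, kept 1 tag per position, set a q-value limit of 0.05 and scaled each pull-down tag to 0.594. The deposited peak table gives summit pileup, a coverage signal in scaled tags, fold enrichment, a ratio over the input level of the call, and −log10 q. The deposited annotation adds class, nearest TSS and a score, which was used for no result. All 50869 pileups came to whole tags within 0.02.

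Annotation was joined to peaks by name. The class follows the peak centre, and the host gene is that of the annotated transcript, named through the RefSeq table of GRCm38.p6 (4255 peaks) or the deposited table's own pairing of transcript and gene (24 peaks). Input plus 1 was recovered as pileup plus 1, divided by fold. Medians, quartiles and exact intervals were computed in Python 3.11.15 with pandas 2.3.3, NumPy 2.4.6 and SciPy 1.17.1, drawn with matplotlib 3.10.9, and the calculations were tested on simulated data.

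Named peaks are the 25 with the highest fold, those of the 5 genes with the most peaks, the longest, highest and farthest, and the 3 strongest in each of 8 gene lists; other genes were named after their values were seen. A few peaks that the rule names are not reported here. Members and lists were chosen with earlier results of these data known. Alternatives were a −log10 q of at least 5, curated mRNA transcripts only, exon 3 or later, and no peaks within 1 kb of a TSS.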

Additional observations from a re-analysis of the deposited data

How the results depend on the processing

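No paired analysis was possible because the authors pooled the pull-downs before calling peaks, and for the same reason no replicate could be left out. Over 26 settings, 10 values stayed inside the 95% interval of the reported value and 16 moved outside it. The 10 include every value under curated mRNA transcripts only, most of the 10. That setting kept all 4286 peaks and so could not move a value. Keeping only peaks with −log10 q of at least 5 took the share of all peaks in later exons to 4.37%, their median fold to 5.35, the share at 5-fold to 90.4%, within 1 kb of a TSS to 13.9%, in the last exon to 34.2% and credited to the host to 67.2%; fold and q come from the same tags. Starting at exon 3 gave 6.54% of all peaks, 13.2% at 5-fold, 1.44% within 1 kb and 55.8% credited to the host. Without peaks within 1 kb of a TSS the values were 11.6% of all peaks, 14.5% at 5-fold and 61.4% credited to the host. Peaks with an input level plus 1 of at most 3.5, a setting chosen after seeing the data, gave 9.05% of all peaks, a median of 4.32 and 17.8% at 5-fold. Curated mRNA transcripts only changed no value, since all later-exon peaks rest on them. At a median of 20 tags, differences of a few tags between single peaks are within counting error.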
